A study of Mus musculus with 9 samples.

Results

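Transcript levels of 9 genes of the acute phase and glial scar response were examined in RNA sequencing of mouse retinal cells. These were Lcn2, Serpina3n, A2m, Cp, Steap4, Cd44, S1pr3, Hspb1 and Aspg. The cells were sorted or cultured as Müller glia, the radial support cells of the retina. Both kinds of sample also held markers of other cell types, as given below. The genes were chosen by name as reactive glia and acute phase genes, and all 9 were found among the 16367 genes measured in sorted cells and the 17035 genes measured in cultured cells. The study held 9 libraries, 3 in each of 3 groups, all labelled wild type. Sham libraries (Sham 1 to 3) came from eyes that had only a corneal incision. Ocular hypertension libraries (OHT 1 to 3) came from mice given 1.2 µL of silicone oil in the front chamber of both eyes, a model of mild chronic pressure rise.

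Each of these 6 libraries was made from a pool of 4 retinas, cleared of dead cells and passed over magnetic beads that hold cells with GLAST, a glutamate transporter of Müller glia that astrocytes also carry. The other 3 libraries (culture 1 to 3) came from untreated cells cultured as Müller glia from C57BL/6J pups of postnatal day 8 to 10. These cells were grown on gelatin in serum medium and passaged. The age of the adult mice, their strain and the time from injection to collection were not given in the sources used here. All libraries were made by amplifying cDNA from very little RNA. The p-values below measure the spread between these pools.

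The acute phase response is the rise of a set of plasma proteins, made mainly by the liver, after injury or infection. Cytokines of the interleukin 6 family act on it through gp130 and STAT3, and interleukin 1 and tumour necrosis factor act through NF-kB and C/EBP factors. Injured astrocytes and Müller glia switch on part of the same program. Lcn2, Serpina3n, Cp, Steap4, Cd44, S1pr3, Hspb1 and Aspg are widely used as markers of reactive astrocytes, while A2m is a classical acute phase protein of rodents.

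RefSeq promoter entries (build GRCm38.p6) were found for 8 of the 9 genes, and A2m was not matched. The 250 bases before the start are shown for Lcn2, Serpina3n and Steap4, which shared their highest library, and for Hspb1, which had 1 very low library. Each runs 5′ to 3′ on the gene's strand and ends at the base before the start. They lie at chr2:32387740-32387989 (minus strand) for Lcn2, chr12:104406458-104406707 (plus strand) for Serpina3n, chr5:7960222-7960471 (plus strand) for Steap4 and chr5:135887669-135887918 (plus strand) for Hspb1. Capitals mark a match to a searched motif.
Lcn2: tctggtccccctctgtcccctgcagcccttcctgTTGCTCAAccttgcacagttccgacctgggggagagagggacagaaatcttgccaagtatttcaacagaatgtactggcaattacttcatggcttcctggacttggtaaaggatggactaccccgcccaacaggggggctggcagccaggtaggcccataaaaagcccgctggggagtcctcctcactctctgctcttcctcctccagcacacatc
Serpina3n: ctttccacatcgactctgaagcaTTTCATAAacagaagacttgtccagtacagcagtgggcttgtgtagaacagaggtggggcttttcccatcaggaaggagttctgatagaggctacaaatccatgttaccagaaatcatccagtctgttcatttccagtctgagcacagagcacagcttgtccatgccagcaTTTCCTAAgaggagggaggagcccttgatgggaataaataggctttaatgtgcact
Steap4: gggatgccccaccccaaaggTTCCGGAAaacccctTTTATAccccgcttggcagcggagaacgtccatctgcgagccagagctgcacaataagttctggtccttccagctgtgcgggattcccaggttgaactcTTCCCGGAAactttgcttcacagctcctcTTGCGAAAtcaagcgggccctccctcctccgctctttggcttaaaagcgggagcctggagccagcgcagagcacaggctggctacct
Hspb1: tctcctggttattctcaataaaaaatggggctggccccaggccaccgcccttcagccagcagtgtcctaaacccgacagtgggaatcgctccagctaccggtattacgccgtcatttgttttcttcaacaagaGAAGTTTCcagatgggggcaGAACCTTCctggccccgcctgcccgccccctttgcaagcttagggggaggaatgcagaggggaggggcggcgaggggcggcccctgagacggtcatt

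The motifs were searched on both strands as STAT (TTCNNNGAA), NF-kB (GGANTTTCC), AP-1 (TGANTCA), C/EBP (TTNNGNAA), heat shock element (GAANNTTC) and TATA box (TATAAA). Lcn2 held 1 C/EBP match, with its first base at -216 counted from the start, and Serpina3n held 2, at -227 and -56. Steap4 held the only STAT match among the 8 genes, TTCCCGGAA at -116, beside C/EBP matches at -230 and -87 and a reverse TATA box at -215. The Steap4 C/EBP matches lay on both strands in the same bases, and no match overlapped one of another motif. Hspb1 held heat shock elements at -117 and -97.

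Of the other promoters, Cp has 2 entries. The first held an AP-1 and a C/EBP match, and the second held a C/EBP match and a TATA box that matched on both strands in overlapping bases. Aspg held 1 C/EBP match, at -86, and Cd44 and S1pr3 held no match. Among 32851 mouse promoter windows of this length, 36.8% held the C/EBP motif, 12.4% the TATA box, 7.02% the STAT motif, 6.75% the AP-1 motif, 6.69% the heat shock element and 1.07% the NF-kB motif. A match is a description of letters and not a measured binding site.

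The sorted libraries held 37.8 to 53.6 M (1e6) reads each, with no pair of replicates alike within sampling noise. Their marker genes were those of a mixed fraction. Microglia and macrophage markers (12 genes) summed to 34800 to 53200 ppm (reads per 1e6 reads) in sham and 47100 to 62900 ppm in OHT, more than the Müller glia markers without Apoe (11 genes, 3450 to 8420 and 1860 to 4020 ppm) in each of the 6 libraries. Apoe was set aside because microglia also express it. Mitochondrially encoded transcripts were 12.2% to 18.1% of sham reads and 1.98% to 5.56% of OHT reads. In bulk samples, fewer cells of a type and less RNA per cell cannot be told apart. Sham 1 stood apart from Sham 2 and Sham 3 in its astrocyte markers (451 ppm against 2730 and 2650 ppm, with Pax2 and Pdgfra at 0 and Gfap at 3.99 ppm) and rod markers (2790 against 25900 and 21100 ppm). Rod markers summed to 991 to 3470 ppm in OHT, with 12 of 12 genes lower than in sham (11 at an unadjusted limma p under 0.05, median log2 difference -2.23). Astrocyte markers summed to 325 to 672 ppm, with 9 of 9 lower (1 at an unadjusted limma p under 0.05, median -1.78). Of all 14403 tested genes, 7886 were lower and 6517 higher in OHT. Aldoc was the largest part of the astrocyte sum in each sorted library (398, 1870 and 1240 ppm in sham, 221, 255 and 500 ppm in OHT). The part of any of these cell types in the differences below was not tested. Transcripts of high GC content were low in OHT 1 and OHT 3. Log2 deviations were taken from the mean of the other sorted libraries. Their median was -0.42 and -0.53 for the tenth of genes with the highest GC, against -0.07 and 0.04 for all genes.

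OHT was compared with sham by limma on log2(value + 1) of the deposited normalised read counts. Of 14403 genes tested, 0 passed an adjusted p of 0.05, which is 0% called, and 1680 (11.7%) had an unadjusted p under 0.05. On reads recovered from the values, edgeR called 0 genes and DESeq2 called 250 (1.8% of those it tested). None of the 9 genes was called by any of the 3 tools, with no adjusted p for Steap4 in DESeq2. Aspg did not pass the filter on low values, so 8 of 9 were tested. Of these 8, 4 had a higher and 4 a lower mean log2 level in OHT, and their median difference was -0.03 against -0.12 for all genes.

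**Figure D1:**
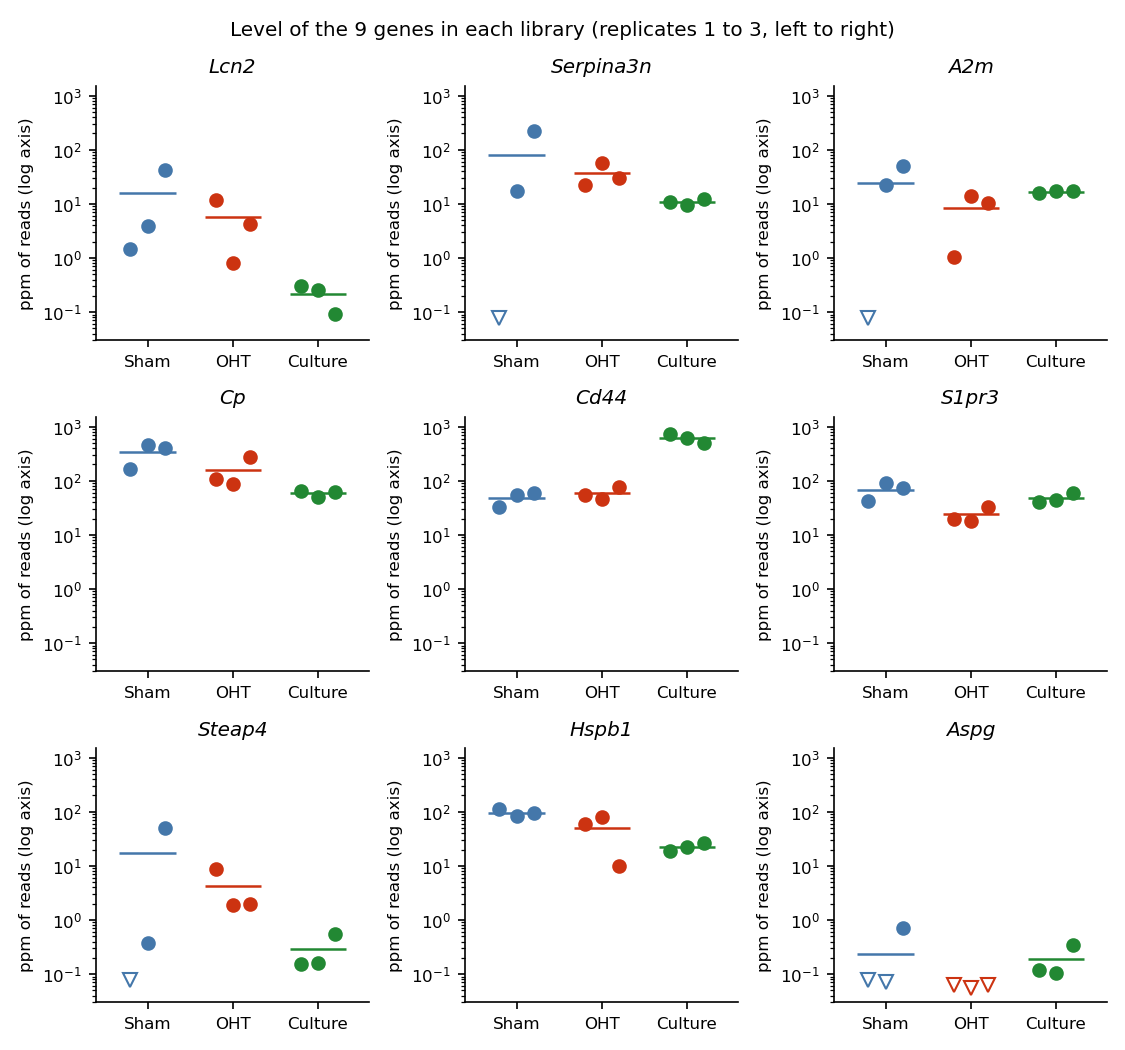
Level of each of the 9 genes in each library, in ppm of the library's reads on a log axis. Points are libraries (replicates 1 to 3 from left to right, blue sham, red OHT, green culture), bars are group means, and open triangles are libraries with 0 reads, drawn at the limit that 0 reads allow (3 reads). Lcn2, Serpina3n, A2m and Steap4 were spread widely in the sorted libraries, and Cd44 was highest in the cultures.

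Among the secreted proteins, Lcn2 encodes lipocalin 2, which binds bacterial siderophores and so withholds iron. Its normalised counts were 56.8, 156 and 1830 in Sham 1, 2 and 3, and 768, 35.4 and 163 in OHT 1, 2 and 3. Sham 3 was the highest library and OHT 2 the lowest, and the groups overlapped. The spread was 32.2-fold within sham and 21.7-fold within OHT. The log2 difference, OHT minus sham, was -0.62 (SE 1.34, 95% interval -3.55 to 2.31, limma adjusted p = 0.853, two-sided exact permutation p = 0.8), and it was 0.80 without Sham 3 and 0.48 without OHT 2. Neutrophils store lipocalin 2 in their granules. Of 11 neutrophil markers, 5 were in the sorted table, and they summed to 161 to 269 ppm in sham and 170 to 204 ppm in OHT, nearly all of it Csf3r (152 to 269 ppm over the sorted libraries). The granule genes Ltf and S100a8 reached at most 0.849 and 0.806 ppm, and Cxcr2 was above 0 in OHT 3 alone. Mmp8, a granule collagenase gene, was at 0, 0.211 and 1.6 ppm in sham and 17.4, 3.69 and 4.58 ppm in OHT. It was highest in OHT 1, which was also the OHT library with the most Lcn2. In contrast, S100a8, Ltf and Cxcr2 were highest in OHT 3, and in OHT 1 they were at 0.189, 0 and 0 ppm. Sham 3, the sorted library with the most Lcn2, had less Mmp8 than each OHT library. On the deposited scale the 3 tested neutrophil genes all had a higher mean log2 level in OHT (median log2 difference 3.79). Of these, 2 did not overlap, while 9.26% of all tested genes were higher in OHT with no overlap. In ppm Csf3r overlapped, at 159 to 269 in sham and 152 to 199 in OHT, and S100a8 was at most 0.806. The part of neutrophil genes in the Lcn2 values was not tested.

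Serpina3n encodes a serine protease inhibitor of the antichymotrypsin family. Its normalised counts were 0, 672 and 9379 in Sham 1, 2 and 3, and 1485, 2512 and 1133 in OHT 1, 2 and 3. The OHT libraries lay within 2.22-fold of each other, inside the range of the sham libraries, which held both the lowest and the highest value. Sham 1 had 0 of 37.8 M reads, which allows up to 0.0793 ppm, counting error only, while Sham 3 had 9802 reads. The mean level was 1710 ± 717 in OHT and 3350 ± 5232 in sham (SD, n = 3 each), whereas the mean log2 level was higher in OHT, by 3.13 (SE 2.38, 95% interval -2.09 to 8.35, limma adjusted p = 0.593, two-sided exact permutation p = 0.7). Without Sham 1 this difference was -0.63, and without Sham 3 it was 5.96. Serpina3n lies in a cluster of near-identical serpin genes, and how reads shared among them were counted was not given in the sources used here.

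A2m encodes alpha-2-macroglobulin, a broad protease trap. Normalised counts of A2m were 0, 881 and 2098 in Sham 1, 2 and 3, and 67.7, 617 and 398 in OHT 1, 2 and 3. All OHT libraries lay below Sham 2 and Sham 3 and above Sham 1, in which 0 reads were counted. The log2 difference was 1.07 (SE 2.26, 95% interval -3.89 to 6.02, limma adjusted p = 0.851, two-sided exact permutation p = 1.0) and -2.41 without Sham 1.

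Cp encodes ceruloplasmin, a copper ferroxidase that loads iron onto transferrin and that astrocytes also carry in a membrane-anchored form. For Cp, normalised counts were 6308, 17742 and 16968 in Sham 1, 2 and 3, and 7164, 3909 and 10520 in OHT 1, 2 and 3. Sham 2 and Sham 3 were above all OHT libraries, and Sham 1 was below OHT 1 and OHT 3. The log2 difference was -0.90 (SE 0.48, 95% interval -1.94 to 0.15, limma adjusted p = 0.479, two-sided exact permutation p = 0.3), and it was -0.51 without OHT 2 and -1.38 without Sham 1. Cp was the most abundant of the 9 genes in reads, with 337 ± 154 ppm in sham and 159 ± 104 ppm in OHT (SD, n = 3 each). Sham 2 and Sham 3, the high Cp libraries, were also those with the most astrocyte markers (2730 and 2650 ppm) and rod markers (25900 and 21100 ppm). Müller glia markers without Apoe were highest in Sham 2 (8420 ppm) and OHT 3 (4020 ppm). The part of these cells in the Cp difference was not tested.

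Among the membrane proteins, Steap4 encodes a metalloreductase that reduces iron and copper for uptake. Steap4 had normalised counts of 0, 14.8 and 2147 in Sham 1, 2 and 3, and 564, 84.0 and 75.3 in OHT 1, 2 and 3. The 3 OHT libraries lay between the lower pair of sham libraries and Sham 3. The log2 difference was 2.25 (SE 2.2, 95% interval -2.56 to 7.07, limma adjusted p = 0.674, two-sided exact permutation p = 0.5). It was -0.26 without Sham 1 and 5.28 without Sham 3.

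Cd44 encodes the main receptor for hyaluronan and is a long-used marker of reactive Müller glia. Cd44 stood at normalised counts of 1285, 2098 and 2515 in Sham 1, 2 and 3, and 3562, 2060 and 2906 in OHT 1, 2 and 3. On this scale OHT 1 and OHT 3 were above all sham libraries, and OHT 2 was below Sham 2 and Sham 3. In ppm OHT 3 alone was above all sham libraries (54.1, 46.7 and 76.9 in OHT, 32.9, 53.3 and 59.1 in sham). The log2 difference was 0.55 (SE 0.40, 95% interval -0.32 to 1.42, limma adjusted p = 0.573, two-sided exact permutation p = 0.3). It was 0.27 without Sham 1, 0.29 with array weights and 0.84 with each library's trend on GC content and length removed. Relative to the median of all genes, the Cd44 difference was 0.67 both with and without the GC and length step. Cd44 is also expressed by microglia and other leukocytes, and the microglia and macrophage markers had a higher median log2 level in OHT (0.59 over 12 genes). Their part in the value was not tested.

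S1pr3 encodes a G protein-coupled receptor for sphingosine 1-phosphate. Its normalised counts were 1659, 3514 and 3132 in Sham 1, 2 and 3, and 1315, 811 and 1254 in OHT 1, 2 and 3. All 3 OHT libraries lay below all 3 sham libraries. On the deposited scale this was so for no other of the 8 genes, though in ppm it also held for Hspb1, while on the deposited scale 9.18% of all tested genes were lower in OHT with no overlap and 9.26% were higher. The log2 difference was -1.26 (SE 0.42, 95% interval -2.18 to -0.33), or -1.13 relative to the median of all genes. It had an unadjusted p of 0.0124 and an adjusted p of 0.343 in limma, 0.422 in edgeR and 0.122 in DESeq2. The exact permutation p was 0.1 (two-sided), the smallest that 3 against 3 can give.

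Leaving out any 1 library kept the S1pr3 difference between -1.59 and -1.03, but its unadjusted p in limma was 0.0734 without Sham 2 and 0.0595 without Sham 3. Removing each library's trend with the GC content and length of transcripts gave -0.76, or -0.93 relative to all genes under that correction, with an unadjusted p of 0.116 and an adjusted p of 0.485 in limma. S1pr3 is known in vessel wall cells as well as in glia. Endothelial markers (10 genes) summed to 228 to 496 ppm in sham and 109 to 208 ppm in OHT, and mural cell and fibroblast markers (13 genes) to 129 to 277 and 10.1 to 58.3 ppm, also with no overlap. Kdr was the largest part of the endothelial sum and overlapped (112 to 242 and 58.9 to 128 ppm). Rgs5 was most of the mural sum in sham (102, 187 and 226 ppm). Of 10 tested genes in each list, 1 endothelial and 3 mural and fibroblast genes were lower in OHT with no overlap on the deposited scale, against 9.18% of all tested genes. Tie1 was at 0 in Sham 1, and of the mural and fibroblast genes Lum was at 0 in all 3 sham libraries and Tagln in all 3 OHT libraries. The part of these cells in the S1pr3 values was not tested.

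**Figure D2:**
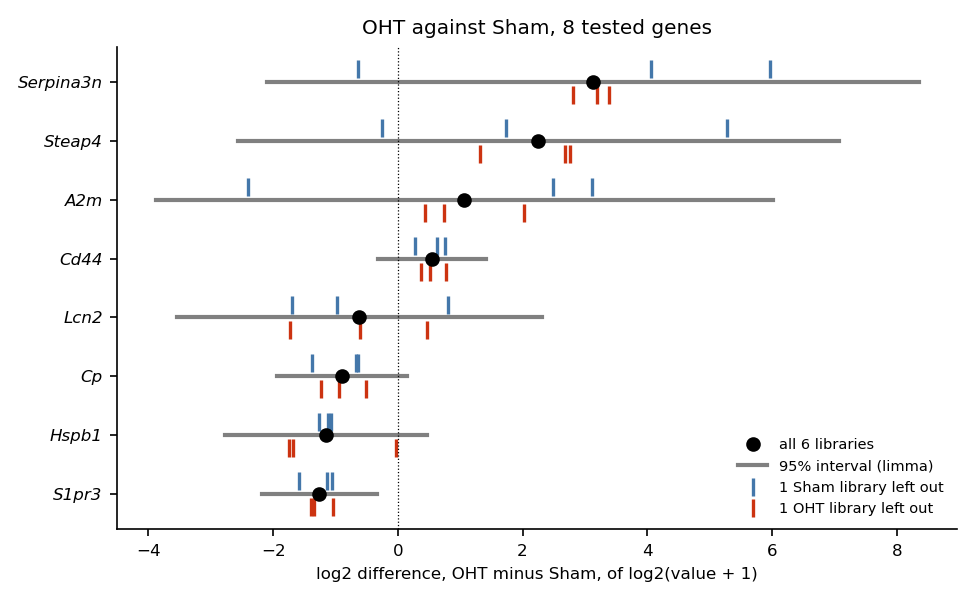
Difference between OHT and sham for the 8 tested genes, on the log2(value + 1) scale. Black points use all 6 libraries, grey bars are 95% intervals from limma, and short ticks are the values with 1 sham (blue) or 1 OHT library (red) left out. The intervals of 7 genes include 0 and that of S1pr3, -2.18 to -0.33, does not with all 6 libraries, while ticks of Serpina3n, Steap4, A2m and Lcn2 lie on both sides of 0.

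Among the proteins that stay in the cell, Hspb1 encodes a small heat shock protein (HSP27 in humans) that holds unfolded proteins and stabilises actin. Hspb1 had normalised counts of 4296, 3276 and 4024 in Sham 1, 2 and 3, and 3927, 3584 and 369 in OHT 1, 2 and 3. On this scale OHT 1 and OHT 2 lay within the sham range, and OHT 3 was 10.7-fold below OHT 1. In ppm of each library, Hspb1 was at 110, 83.3 and 94.6 in sham and 59.7, 81.2 and 9.76 in OHT, so that all OHT libraries lay below all sham libraries. The log2 difference was -1.15 (SE 0.74, 95% interval -2.77 to 0.47, limma adjusted p = 0.537, two-sided exact permutation p = 0.5), and it was -0.03 without OHT 3. The Hspb1 transcript has a GC content of 61.7%, above 98.3% of the tested genes. Genes of high GC content were low in both OHT 3 and OHT 1, and Hspb1 was far below its other libraries in OHT 3 alone. With each library's trend on GC content and length removed, the difference was -0.86, and relative to the median of all genes it was -1.03 both with and without that step. That step removes only the average trend over genes. The part of GC content in the Hspb1 values was not tested.

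Aspg encodes an asparaginase with lysophospholipase activity. It was counted with 31 reads in Sham 3, or 29.7 normalised counts, and with 0 reads in the other 5 sorted libraries. A count of 0 allowed up to 0.056 to 0.0793 ppm in these libraries, against 0.697 ppm in Sham 3. Aspg was not detected in the OHT libraries at this depth, and no fold was computed.

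The 9 genes did not share a single pattern over the sorted libraries. In normalised counts, Lcn2, Serpina3n, A2m, Steap4 and Aspg were highest in Sham 3, Cp and S1pr3 in Sham 2, Hspb1 in Sham 1 and Cd44 in OHT 1 (in ppm, Cd44 was highest in OHT 3). Of all tested genes, 12.1% were highest in Sham 3 and 32.7% in OHT 1. In Sham 3, log2 levels lay above the mean of the other 5 libraries by 5.91 for Steap4, 4.92 for Serpina3n, 4.28 for A2m and 3.78 for Lcn2, against 1.08 for Cp, 1.05 for S1pr3 and 0.16 for Cd44. In Sham 1, 4 of the 9 genes (Serpina3n, A2m, Steap4 and Aspg) had 0 reads. Among all genes with a mean of at least 100, 58 (0.50%) had 0 reads in that library, and Serpina3n, A2m and Steap4 were 3 of them.

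**Figure D3:**
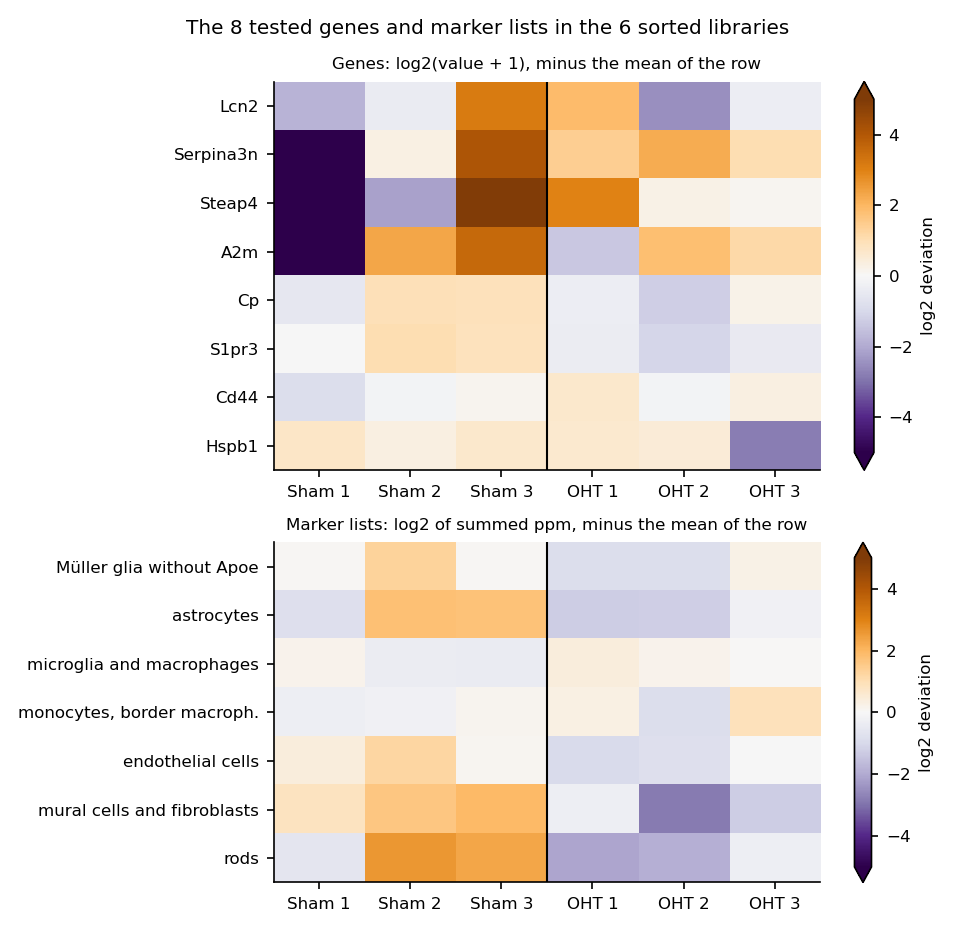
The 8 tested genes (upper panel, log2(value + 1)) and 7 marker lists (lower panel, log2 of summed ppm) in the 6 sorted libraries, each row minus its own mean. Orange is above the row mean and purple below, with colours saturating at the ends of the bar. Lcn2, Serpina3n, Steap4 and A2m peak in Sham 3, Hspb1 is low in OHT 3 alone, and rod and astrocyte markers are high in Sham 2 and Sham 3.

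The genes whose pattern was nearest to each of the 8 were found among 11528 genes with a mean of at least 100, by the mean absolute difference of row-centred log2 values over the 6 libraries. Cp, S1pr3, Cd44 and Hspb1 had close neighbours. Cp was nearest to Ptn (0.13), a growth factor gene, and Plekhb1 (0.17), S1pr3 to Ddah1 (0.12) and Bbs7 (0.12), Cd44 to Hip1 (0.06) and Phyh (0.10), and Hspb1 to Pdf (0.15) and Rbfa (0.16). Pdf and Rbfa were also lowest in OHT 3, at normalised counts of 96.2 and 123, which follows from their choice by likeness to Hspb1. Their GC content of 55.7% and 59.4% was above 80.7% and 94.5% of the tested genes. The part of GC content in this likeness was not tested.

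The more variable genes had only loose neighbours. Lcn2 was nearest to Tmem266 (0.67) and Chil1 (0.72), a chitinase-like gene of reactive astrocytes and myeloid cells that reached 35670 normalised counts in Sham 3 and 899 in Sham 1. Serpina3n was nearest to Emp1 (1.08) and to A2m (1.25), A2m to Cacnb3 (0.84) and Gfra1 (0.93), and Steap4 to the beta-globin gene Hbb-bs (1.00) and C77080 (1.18). For scale, the mean absolute deviation of the genes themselves was 1.68 for Lcn2, 3.03 for Serpina3n, 2.95 for A2m and 2.77 for Steap4.

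In untreated culture the genes were ordered otherwise. Levels are given in ppm of each library, with no test, because the cultured and sorted cells were normalised in separate tables. Cd44 had 743, 619 and 492 ppm in culture 1, 2 and 3, a mean of 618 ± 126 ppm (SD, n = 3). This was 12.8-fold above the sham mean of 48.4 ± 13.8 ppm and 10.4-fold above the OHT mean of 59.3 ± 15.8 ppm, with no overlap. Lcn2 showed the opposite, with 0.302, 0.251 and 0.0912 ppm, or 20 and 19 reads in cultures 1 and 2. Its mean of 0.215 ± 0.11 ppm was 75.2-fold below that of sham (16.1 ± 23.3 ppm) and 26.1-fold below that of OHT (5.59 ± 5.55 ppm), and each culture was below each sorted library.

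Cp was also below every sorted library, with 63.9, 49.5 and 60.8 ppm in culture, 5.8-fold under the sham mean and 2.73-fold under the OHT mean. Steap4 had 0.151, 0.159 and 0.547 ppm, 14.6-fold below the OHT mean of 4.16 ± 3.82 ppm with no overlap, and it overlapped the sham libraries, which include a 0. Serpina3n was steady in culture, at 10.6, 9.49 and 12.2 ppm, which was 3.39-fold below the OHT mean of 36.5 ± 18.1 ppm without overlap and within the sham range. Hspb1 had 18.5, 21.9 and 26.8 ppm, 4.28-fold below the sham mean of 95.9 ± 13.4 ppm without overlap, and within the OHT range because of OHT 3.

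A2m and S1pr3 were higher in culture than in OHT only. A2m had 16.0, 17.3 and 16.9 ppm in culture, 1.97-fold above the OHT mean of 8.52 ± 6.71 ppm, and S1pr3 had 39.6, 44.9 and 58.3 ppm, 2.0-fold above the OHT mean of 23.9 ± 8.13 ppm. A2m lay within the sham range and S1pr3 overlapped it. Aspg had 8 reads in culture 1 and 8 in culture 2, or 0.121 and 0.106 ppm, and 0.339 ppm in culture 3. Cultured cells differed from sorted cells in their markers too. The Müller glia list without Apoe summed to 2710 to 3560 ppm in culture, within the sorted range, but most of that was Vim (2300 to 3320 ppm in culture, 56.8 to 153 ppm in sorted libraries). Rlbp1 (1.6 to 2.84 ppm in culture, 389 to 2090 ppm in sorted libraries) and Glul (24.9 to 48.2 and 495 to 2090 ppm) were lower in culture. The mural and fibroblast list reached 16700 to 19700 ppm, with Acta2 at 8130 to 13200 ppm and the collagen gene Col1a1 at 4120 to 6520 ppm. Rgs5 and Kcnj8 of that list were lower in each culture than in each sorted library. Microglia and macrophage markers summed to 105 to 164 ppm in culture. Medium, age and cell makeup differ together between cultured and sorted cells and cannot be told apart.

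**Figure D4:**
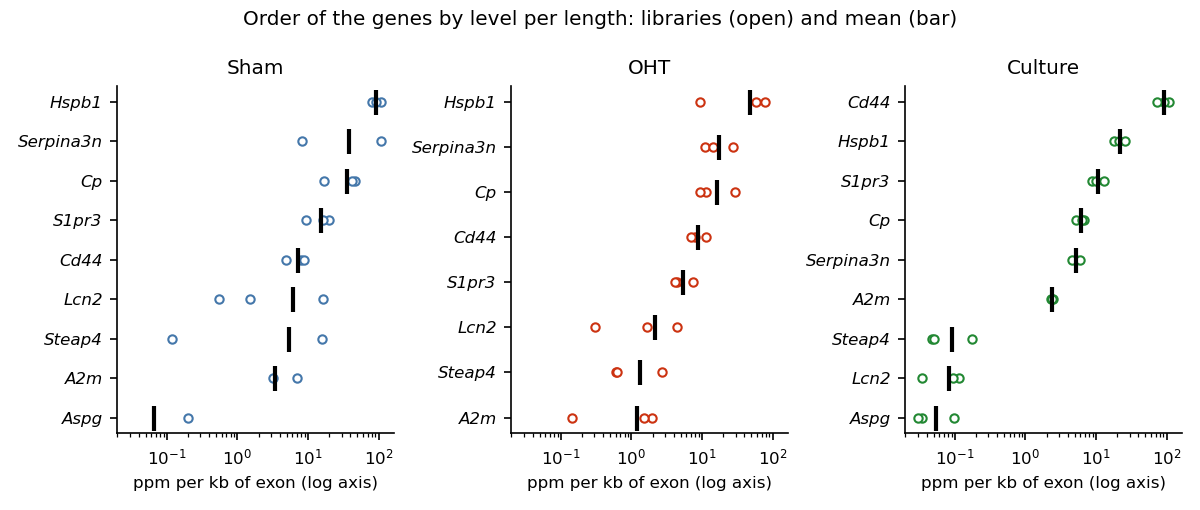
Order of the 9 genes by level per length, in ppm per kb of exon on a log axis, in sham, OHT and culture. Open points are libraries and bars are group means; libraries with 0 reads have no point and still count in the mean, and Aspg, at 0 in all OHT libraries, has no place in the OHT panel. Hspb1 heads both sorted groups and Cd44 heads the cultures.

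Levels were divided by the length of all annotated exons of a gene so that genes could be set side by side. On this scale Hspb1 had the highest mean level in sham (93.0 ppm per kb of exon) and in OHT (48.7), followed by Serpina3n (38.4 and 17.7) and Cp (35.2 and 16.6). In sham Hspb1 (80.8 to 107) lay above Cp (16.9 to 47.1), while Serpina3n, from 0 to 107, overlapped both, and in OHT, where Hspb1 ran from 9.47 to 78.8, the 3 genes overlapped. In sham the order went on with S1pr3 (15.3), Cd44 (7.15), Lcn2 (6.15), Steap4 (5.37) and A2m (3.4), of which S1pr3 and Cd44 did not overlap (9.51 to 20.02 against 4.85 to 8.72) and the last 4 did. In OHT, Cd44 (8.74) came before S1pr3 (5.35), overlapping it, and before Lcn2 (2.13), Steap4 (1.32) and A2m (1.21).

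In culture the upper ranks separated. Cd44 (91.2 ppm per kb of exon, 72.5 to 110) was above Hspb1 (21.7, 17.9 to 26.0), which was above S1pr3 (10.7, 8.87 to 13.1), which was above Cp (6.07, 5.18 to 6.68). Cp and Serpina3n (5.22, 4.60 to 5.90) overlapped, A2m followed at 2.39, and Steap4 (0.0905), Lcn2 (0.0818) and Aspg (0.0535) overlapped at the bottom. The place of Cp depends on the length used: its exons span 9566 bases and its longest transcript 4564. Per kb of the longest transcript, Cp (73.9 in sham, 34.8 in OHT) came before Serpina3n (38.4 and 17.7) and overlapped Hspb1 in sham (35.4 to 98.8 against 89.6 to 118). On that scale Lcn2 (11.7) came before Cd44 (8.63) in sham, and Cp (12.7, 10.9 to 14.0) before S1pr3 (10.7, 8.87 to 13.1) in culture, again with overlap. Hspb1 in both sorted groups and Cd44 in culture had the highest mean on either scale.

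Other genes of the same program were read from 4 lists, and 0 genes of any list passed the adjusted threshold in limma. Of 32 tested reactive glia markers beyond the 9 genes, 18 were higher and 14 lower in OHT, 4 and 1 of them at an unadjusted p under 0.05, with a median log2 difference of 0.24 against -0.12 for all genes. The proteoglycan gene Srgn had normalised counts of 9288, 4913 and 7501 in sham and 22733, 10389 and 16572 in OHT, a log2 difference of 1.17 (SE 0.38, limma adjusted p = 0.34). The groups did not overlap on this scale, but in ppm OHT 2 (236) was below Sham 1 (238). The immunoproteasome gene Psmb8 differed by 1.04 (limma adjusted p = 0.37), Tm4sf1 by -2.49 (limma adjusted p = 0.358) and the cytokine gene Clcf1 by -1.72 (limma adjusted p = 0.438). Srgn and Psmb8 are also expressed by myeloid cells.

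Of 26 other acute phase proteins, 21 were in the sorted table and 10 were tested, of which 7 were higher and 3 lower, with 2 higher at an unadjusted p under 0.05 and a median of 0.77. Mt1, a metallothionein, had normalised counts of 4311, 2509 and 4883 in sham and 13783, 5741 and 14302 in OHT, a difference of 1.47 (SE 0.43, limma adjusted p = 0.332), with no overlap. Saa3, a serum amyloid A gene, had 22.7, 0 and 226 in sham and 370, 173 and 167 in OHT, a difference of 3.66 (SE 1.66, limma adjusted p = 0.426), with overlap. The paralog Serpina3f differed by -0.36 (limma adjusted p = 0.954).

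Of 23 genes of the inducing pathway, 9 were higher and 14 lower, 1 in each direction at an unadjusted p under 0.05, with a median of -0.19. The cytokine gene Il1b had normalised counts of 4058, 4071 and 9524 in sham and 20658, 7960 and 15365 in OHT, a difference of 1.34 (SE 0.45, limma adjusted p = 0.343), with overlap in OHT 2. The receptor subunit gene Cntfr had 361, 1108 and 523 in sham and 64.9, 187 and 51.3 in OHT, a difference of -2.78 (SE 0.78, limma adjusted p = 0.332), with no overlap. The cytokine gene Osm differed by 0.61 (limma adjusted p = 0.502) and Rela, a subunit of NF-kB, by -0.73 (limma adjusted p = 0.52).

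Of 28 receptors, partners and relatives of the 9 genes, 25 were in the sorted table and 21 were tested, 8 higher and 13 lower, 0 and 3 at an unadjusted p under 0.05, with a median of -0.72. Both receptors proposed for lipocalin 2 were among the lower ones. Slc22a17 had normalised counts of 1835, 5381 and 4693 in sham and 1425, 1741 and 567 in OHT, a difference of -1.68 (SE 0.53, limma adjusted p = 0.332), and Lrp2 had 212, 633 and 277 in sham and 13.8, 24.7 and 160 in OHT, a difference of -3.09 (SE 1.05, limma adjusted p = 0.343). Neither overlapped between the groups. Slc40a1, the iron exporter that works with ceruloplasmin, differed by 0.65 (limma adjusted p = 0.477) with no overlap, and S1pr1, a sister receptor of S1pr3, by 0.77 (limma adjusted p = 0.636), with 15341 normalised counts in OHT 3 against 1640 to 3952 in the other libraries.

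**Figure D5:**
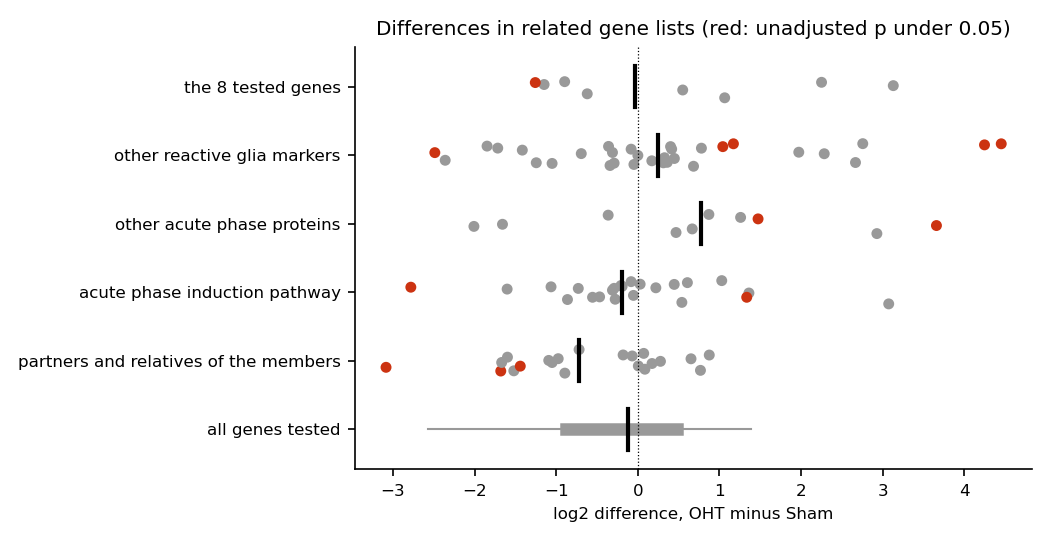
Log2 differences, OHT minus sham, of the 8 tested genes and of 4 related gene lists. Points are genes (red where the unadjusted p was under 0.05), black bars are list medians, and for all 14403 tested genes the thick bar spans the genes from 25% to 75% and the thin line those from 5% to 95%. List medians run from -0.72 for partners and relatives to 0.77 for other acute phase proteins, and no gene passed the adjusted threshold.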

How the data were processed

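Per the submitters' processing notes, reads passed through bcl2fastq 2.20, Trim Galore 0.6.6, FastQC 0.11.9 and STAR 2.7.1a, with the build mm39. The counting program, the annotation and the normalization tool were not given in the sources used here. The authors deposited 1 signal per gene and library, a normalised read count, in 1 table for the 6 sorted libraries and 1 for the 3 cultures, normalised separately. Columns with no sample numbered 0.

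Each deposited sorted column is a whole read count divided by 1 factor: dividing by its smallest step gave whole reads for 100% of values, within 0.05 reads. Cultures 1 and 2 gave whole reads as well (66.3 and 75.7 M). For culture 3 (deposited total 77.3 M) reads were not recovered. The deposited total was 65.8 M in OHT 1 and 37.8 to 44.1 M in the other sorted libraries. Relative to those, OHT 1 therefore stands higher in deposited values than in ppm. cDNA was amplified and no molecular identifiers are named, so reads may share a molecule and limits for a count of 0 (3 reads) cover counting error only.

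OHT was compared with sham by limma 3.58.1 (eBayes with trend, R 4.3.3) on log2(value + 1) in 14403 genes with a mean of at least 10, with Benjamini-Hochberg adjustment over all of them. A fold on this scale understates the change of low genes. edgeR 4.0.16 and DESeq2 1.42.0 were run on the recovered reads, with no adjusted p in DESeq2 for 510 genes. The main limma fit, edgeR and DESeq2 were tested on simulated data, and the other alternatives listed below were not. Levels across tables are in ppm of each library, with no test. The labels gave each library's group and number.

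Exon and transcript lengths and GC content came from GENCODE M21 (GRCm38) and promoters from RefSeq (GRCm38.p6), both of another build than the authors'. Named genes were the 9 genes, the listed genes past the threshold or else, per list, the 2 with the smallest unadjusted p in each direction among those with a mean of at least 100, and the 2 nearest genes in pattern. Predicted genes were skipped. The 9 genes, the lists and the marker genes were chosen with earlier results of these data known. Alternatives covered pseudocounts, filters, scalings, weights, a replicate block, the other tools, leaving out each library, and a GC and length correction (splines with 4 degrees of freedom, 96.2% of genes) chosen after seeing the data. Figures used Python 3.11.15, numpy 2.4.6, pandas 2.3.3 and matplotlib 3.10.9.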

Additional observations from a re-analysis of the deposited data

How the results depend on the processing

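None of the 9 genes passed the adjusted threshold under any alternative run. Over the 8 tested genes, 133 of 143 alternative values kept the direction of the log2 difference and 10 reversed it, and the lowest adjusted p among them was 0.122 (S1pr3, DESeq2). Cp, Cd44, Hspb1 and S1pr3 kept their direction under every alternative run. Serpina3n was -1.06 in edgeR, -0.97 in DESeq2 and -0.63 to 5.96 with 1 library left out. A2m was -1.52 in edgeR, -1.46 in DESeq2 and -2.41 to 3.11 with 1 library left out. Steap4 was -1.72 in edgeR and -0.26 to 5.28 with 1 library left out, and DESeq2 gave no adjusted p for it, so its value was left out. Lcn2 ran from -1.73 to 0.80 with 1 library left out. With a pseudocount of 10 the difference was 0.03 for A2m, 1.04 for Steap4 and 2.03 for Serpina3n, and with array weights it was 0.27 for A2m, 0.32 for Steap4, 1.58 for Serpina3n and -2.03 for Lcn2. edgeR and DESeq2 compare mean levels and limma compares mean log2 levels, and why the 2 kinds of fit differ for these genes was not tested. Over all genes, the count called was 250 in DESeq2 and 2 with the replicate block, and 0 to 12 with 1 library left out (12 without Sham replicate 1, 7 without Sham replicate 3), against 0 as reported; the cause was not tested. Same-numbered sham and OHT libraries deviated together with a correlation of 0.08, -0.02 and -0.05, so the numbers were not taken as pairs, and not every library correlated best with its own number. The GC and length correction, chosen after seeing the data, moved the median difference of all genes from -0.12 to 0.17 and quantile normalization moved it to 0.01. Of 45 alternative culture levels, 44 moved by less than 1 SD, and A2m was at 18.8 ppm when the 20 highest genes were left out of the total. With 3 pools a group, the interval of Lcn2 was -3.55 to 2.31 although 43 to 1913 reads were counted in each sorted library.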

Other observations

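Several genes outside the naming rule, chosen after their values were seen, also had their highest sorted level in Sham 3. These were the serpin paralogs Serpina3g (19.4 ppm in Sham 3, at most 4.2 ppm in the other sorted libraries), Serpina3i (1.51 ppm, 0 in the others) and Serpina3h (0.877 ppm, 0 in the others), the complement gene C3 (86.7 ppm against 4.92 to 25.7 ppm) and haptoglobin (Hp, 3.55 ppm against at most 1.72 ppm). The intermediate filament gene Gfap was at 1120 ppm in Sham 3 and 569 ppm in Sham 2, against 3.99 to 83.2 ppm in the other sorted libraries. Other genes of the same lists were highest elsewhere: Mt1 (379 ppm) and Trf (4270 ppm) in OHT 3, Cd14 (2370 ppm) in OHT 1 and Osmr (23.1 ppm) in Sham 2. Genes of the lists were not counted by highest library. Of all tested genes, 12.1% were highest in Sham 3 in normalised counts.

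In culture, some reactive glia and chaperone genes followed the direction of Cd44 and others went the opposite way. Those named here were also chosen after their values were seen. Timp1, an inhibitor of matrix proteases, was at 1230, 727 and 780 ppm against at most 5.33 ppm in sorted libraries, and Cryab, a small heat shock protein related to Hspb1, was at 1450, 1010 and 1180 ppm against 65.3 to 266 ppm. Lower in culture were Cd14 (4.93 to 10.2 ppm against 1060 to 2370 ppm in sorted libraries) and Psmb8 (2.22 to 4.18 ppm against 205 to 597 ppm). Genes in each direction were not counted. No test was made across the separately normalised tables.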
